A study of Mus musculus with 7 samples.

Results

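Among the probes of a mouse expression array, 4449 are named by a stretch of the genome and a strand and not by a known transcript. The cells were MIN6, an established insulin-producing line from mouse pancreatic beta cells. Members were all non-control probes whose systematic name starts with chr and ends in _F (forward strand) or _R (reverse strand). They make up 7.86% of the 56605 non-control probes of the array. Positions are on the mouse build mm9, the build in the file headers.

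There were 7 arrays in 1 colour (Cy3), with RNA of 1 MIN6 sample on each. The vehicle group (3 arrays) received phosphate-buffered saline and the MPE group (4 arrays) a polysaccharide extract of Maidong, both over 3 days in the same serum-supplemented medium. The labels do not give the MPE concentration used for the arrays. They also do not say whether replicates are separate cultures, so the p-values rest on a spread among samples that may be technical. Vehicle arrays lay in row 1 (columns 1, 2 and 4) and MPE arrays in row 2 (columns 1 to 4) of the same slide. The effects of row and treatment cannot be told apart. All 10 beta-cell markers checked, among them Ins1, Ins2, Pdx1 and Mafa, were well above background on all 7 arrays.

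Intergenic transcripts of this kind are mostly long non-coding RNAs. They are transcribed by RNA polymerase II from stretches between protein-coding genes, and are often spliced, low in abundance and restricted to few cell types. In pancreatic islets, long non-coding RNAs are known that are specific to beta cells and lie close to genes of beta-cell identity. An array that carries probes for both strands of a stretch can show which strand is transcribed, because a probe binds labelled RNA of 1 orientation.

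The 4449 probes covered 3229 regions on 20 chromosomes, with 2227 probes on the forward and 2222 on the reverse strand. Of the regions, 832 were probed on both strands, 1236 on the forward strand alone and 1161 on the reverse strand alone. Region length ran from 62 to 538251 bases, with a median of 7207 bases and quartiles of 698 and 21044 bases. The regions are not independent units, since 1740 of them overlapped another region of the set. For 316 combinations of region and strand there were several probes, up to 6. The probes were spread over the array, with 2214 in the low-numbered rows (1 to 192), 2230 in the high-numbered rows (193 to 384) and 5 with spots in both.

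Detection of the intergenic probes in these cells ranged from every array to none. Of the 4449 probes, 1258 (28.3%) were well above background on all 7 arrays, 978 (22.0%) on 1 to 6 arrays and 2213 (49.7%) on none. Well above background is the flag that the scanner software sets for a spot clearly brighter than its array's background. The same 3 shares were 27.0%, 16.0% and 57.0% for the 2477 probes of RefSeq non-coding RNAs (NR accessions). Of the 29638 probes of RefSeq mRNAs (NM accessions), 61.4% were on all 7 arrays and 28.0% on none. Among regions, 1060 of 3229 (32.8%) had a probe detected on all 7 arrays, 743 had at best 1 to 6 arrays, and 1426 had none.

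Detection differed with the make-up of the regions. With regions ranked by length into 4 equal groups, probes of the shortest were on all 7 arrays in 18.5% of 826 cases. In the next longer groups the share was 29.4% of 979, 29.3% of 1323 and 32.5% of 1321 probes. Probes of regions covered on both strands were on all 7 arrays in 32.6% of 1893 cases, and those of regions covered on 1 strand in 25.1% of 2556. By strand, 27.4% of forward and 29.1% of reverse probes were on all 7 arrays. These shares are descriptions without a test, because probes to overlapping regions share their target.

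The number of intergenic probes well above background was 1711, 1789 and 1705 on the vehicle arrays and 1472, 1492, 1472 and 1551 on the MPE arrays. Every MPE array thus lay below every vehicle array, with means of 1497 ± 37.4 (SD, n = 4) and 1735 ± 46.9 (SD, n = 3). In percent, the intergenic probes went from 39.0% ± 1.05 (SD, n = 3) with vehicle to 33.6% ± 0.840 (SD, n = 4) with MPE. The other non-control probes went from 53.7% ± 0.526 (SD, n = 3) to 51.1% ± 0.405 (SD, n = 4). The flag's own limit moved with the groups. The lowest signal that counted as well above background, on the log2 scale relative to the array's 75th percentile, was -4.73 to -4.61 on the vehicle arrays and -4.16 to -4.11 on the MPE arrays. With 1 limit of -4.11 for all arrays, the counts were 1531 to 1547 with vehicle and 1512 to 1600 with MPE, and the groups overlapped.

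A level here is the log2 processed intensity after subtracting the 75th percentile of its array, taken over non-control probes. Brightness also depends on each probe's own sequence, so levels of different probes are given side by side without a ratio. The 1258 probes on all 7 arrays had mean levels from -3.98 to 8.93, with a median of -1.60. Of these, 375 (29.8%) lay above the 75th percentile, against 37.0% of the 668 RefSeq non-coding RNA probes and 62.7% of the 18209 mRNA probes detected on all arrays.

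The brightest member was the forward probe of chr17:48068261-48087905. Its levels were 9.05, 8.97 and 8.90 on the vehicle arrays and 9.01, 8.99, 8.75 and 8.86 on the MPE arrays. The groups overlapped, and the limma difference, MPE minus vehicle, was -0.07 (SE 0.08, adjusted p of 1). This probe had 10 spots on each array, whose SD within an array was 0.036 to 0.060 on the log2 scale, while the arrays ran from 8.75 to 9.05.

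Next came the reverse probe of chr17:17481706-17482457, with vehicle levels of 8.30, 8.37 and 8.25 and MPE levels of 8.28, 8.20, 8.15 and 8.27. The reverse probe of chr11:22681800-22707775 stood at 8.31, 8.23 and 8.07 with vehicle and 8.26, 8.25, 8.03 and 8.17 with MPE. On chromosome 14, the forward probe of chr14:78924115-78938125 stood at 8.06, 7.85 and 7.64 with vehicle and 7.90, 7.85, 7.59 and 7.69 with MPE. In all 3 the groups overlapped.

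The other members of the 10 brightest combinations of region and strand were the forward probes of chr6:116123643-116124550 and chr6:83368261-83407280 and the reverse probes of chr7:108209996-108216032, chr11:97457180-97487074, chr12:73838608-73862621 and chr2:168804720-168854970. Their means over the 7 arrays ran down to 6.68. For all 10 brightest members the 2 groups overlapped, the fitted MPE level was 0.906 to 0.984 times vehicle, and the 95% intervals lay between 0.722 and 1.22 times.

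One array in each group stood low for the bright members. Vehicle replicate 3 was the lowest vehicle array for 9 of the 10 brightest members, and MPE replicate 3 was the lowest MPE array, or tied for it, for 10 of 10. Of the 375 members above the 75th percentile, vehicle replicate 3 was lowest in 63.5% and MPE replicate 3 in 57.9%, and both were in 51.2%. Among the 13751 other probes detected on all arrays and above the 75th percentile, both were lowest in 25.1%. With 5 other scalings or sources of signal the first of these joint shares was 46.4% to 51.2% and the second 19.5% to 23.9%. The 75th percentile that was subtracted was itself highest on these arrays within their groups, at 8.57 and 8.71 on the log2 scale, and its part in this was not tested. The labels give no batch, and the arrays lay in columns 4 and 3 of the slide.

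Of the 832 regions probed on both strands, 209 gave a signal from 1 strand alone, meaning a probe of that strand on all 7 arrays and the other strand on none. These were 83 forward-only and 126 reverse-only regions. Both strands were on all 7 arrays in 120 regions, and neither was on any array in 167. These counts depend on the detection rule: single-strand regions numbered 354 where 4 arrays sufficed. With the scanner's less strict flag (positive and significant) there were 80 single-strand and 251 both-strand regions, which turns their order. In 121 regions 1 strand was on all 7 arrays and the other on some, and in 215 no strand was on all 7 but at least 1 was on some. Detection of 1 strand went with detection of the other. Where the forward strand was on all 7 arrays, the reverse strand was too in 44.0% of 273 regions, and where the forward strand was on none, the reverse strand was on all 7 in 33.2% of 379. In the other direction the shares were 40.4% of 297 and 25.3% of 328.

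Per array, regions with both strands well above background numbered 190, 205 and 185 with vehicle and 145, 151, 146 and 160 with MPE, and the groups did not overlap. Regions with the forward strand alone numbered 164, 157 and 161 with vehicle and 171, 162, 157 and 162 with MPE. Regions with the reverse strand alone numbered 201, 209 and 214 with vehicle and 193, 204, 201 and 205 with MPE, more than the forward-only regions on each of the 7 arrays. Both kinds of single-strand region overlapped between the groups, whereas the both-strand count moved with the higher detection limit of the MPE arrays given above, whose part was not tested.

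The clearest single-strand regions had a bright strand beside one at the floor. In chr11:97457180-97487074 the reverse probe stood at 7.37, 7.35 and 6.96 with vehicle and 7.28, 7.16, 6.85 and 7.04 with MPE. The forward probe of the same region was at -6.73, -6.54 and -6.74 with vehicle and -6.30, -5.54, -6.30 and -6.32 with MPE, not well above background on any array. In chr1:193875525-193978800 the reverse probe ran from 6.35 to 6.70 over the 7 arrays, and the forward probe was on none.

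The same picture held on chromosome X. In chrX:102222494-102267068 the reverse probe ran from 5.95 to 6.40 with the forward probe on no array. In chrX:18744367-18853992 it was the forward probe that was detected, at 5.82, 5.88 and 5.00 with vehicle and 5.71, 5.58, 4.67 and 5.22 with MPE, and replicate 3 was the lowest in both groups. Another forward-only region was chr8:48476637-48492537, where the detected probe ran from 3.97 to 5.29 and was again lowest on replicate 3 of each group. In chr18:36449530-36456800 the forward probe ran from 4.07 to 4.41. For all 6 of these detected probes the groups overlapped and the limma adjusted p was 1.

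In other regions both strands gave a signal. Both probes of chr12:73838608-73862621 were bright, the reverse one at 6.76 to 7.24 and the forward one at 4.82 to 5.88 over the 7 arrays. In chr7:108209996-108216032 the reverse probe ran from 7.08 to 7.31 and the forward probe from 2.54 to 2.87. In chr19:56820850-56837925 the reverse probe ran from 6.11 to 6.39 and the forward probe from 1.83 to 2.27. In chr6:116092274-116144199, which overlaps the bright region chr6:116123643-116124550, the forward probe ran from 6.38 to 7.03 and the reverse probe from 1.72 to 2.15.

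Several probes to 1 strand of 1 region often disagreed. Of the 316 combinations of region and strand with several probes, all probes were on all 7 arrays in 64 and all were on none in 76. In 57 combinations 1 probe was on all 7 arrays and another on none. The regions with the most probes over both strands are given next. In chr10:56151791-56184966 1 of 7 probes was on all 7 arrays, a reverse probe at -0.72, -0.75 and -1.02 with vehicle and -0.81, -1.08, -1.35 and -0.99 with MPE, and 5 were on none. In chr12:45415565-45423519, with 8 probes, and chr14:65720392-65769859, with 7 probes, none was on all 7 arrays. A region without a detected probe is therefore not shown to be silent.

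Detection of a region went with detection of its nearest other region. Where a region's nearest other region lay within 10 kb and was detected on all 7 arrays, the region itself was detected in 40.9% of 779 cases. Where that neighbour was not, the share was 27.9% of 1336. The cases within 100 kb include those within 10 kb, and their shares were 40.2% of 896 and 28.3% of 1607. Neighbours lying only 10 to 100 kb away were not counted apart. Overlapping regions count as neighbours here and can hold the same transcript. These shares therefore do not show that separate detected transcripts lay close together.

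Joining regions separated by at most 50 kb gave 1671 stretches, 345 of them with 3 or more regions, and in 53 at least 3 regions were detected on all 7 arrays. In the stretch chr17:39960567-39992817 all 5 regions were detected, and each had 1 probe. Its forward probes of chr17:39983902-39985688 and chr17:39982023-39983277 had mean levels of 5.12 and 4.67, and its 3 reverse probes means of 3.56, 2.54 and 2.10. The limma differences of these 5 probes, MPE minus vehicle, lay between -0.15 and -0.00, and none passed. Whether these probes bind RNA of a known gene or a long non-coding RNA was not tested.

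Longer stretches mixed detected and undetected regions. In chr6:30983012-31293337, 5 of 10 regions were detected on all 7 arrays. Its brightest probe was the forward one of chr6:31233512-31241062, at a mean of 1.79 (1.75 to 1.84 over the arrays). In chr7:69005291-69131056, 5 of 7 regions were detected, led by the forward probe of chr7:69024136-69131056 at a mean of 1.80, with 4 reverse probes inside the same interval between -1.26 and 0.70. Genes beside these regions are not named, because gene positions on this build were not used here.

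MPE was set against vehicle to ask which of these transcripts differ after treatment. No intergenic probe passed the test. Of the 4449 members, 1618 were well above background on at least 3 arrays and were tested by limma together with all such probes of the array (28938). At a Benjamini-Hochberg adjusted p under 0.05 limma called 0 members, where 0.0104% of all tested probes were called (0.00346% higher and 0.00691% lower), and the smallest adjusted p of a member was 0.373, for members detected on vehicle arrays alone. The 95% interval stayed inside 2-fold either way for 1427 of the 1618 members (88.2%) and for 94.6% of all tested probes.

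The differences leaned to lower levels with MPE. Of the 1618 tested members, 1087 (67.2%) stood lower and 531 higher, with a median log2 difference of -0.07, and over all tested probes 56.8% stood lower with a median of -0.01. With arrays scaled to their medians, 81.2% of members stood lower with a median of -0.14. That scaling also moved the median over all tested probes to -0.08. At an unadjusted limma p under 0.05, 137 members (8.47%) were lower, where the background over all tested probes was 3.35%, and 9 (0.556%) were higher, where it was 0.812%. The groups did not overlap for 109 members (6.74%) lower with MPE and 7 (0.433%) higher, where the background shares were 3.38% and 1.29%. Members could enter through the vehicle arrays alone, whose detection limit was lower. Among the 1258 on all 7 arrays, 67.2% stood lower with a median of -0.06, against 55.4% and -0.01 for the 24720 other probes on all 7.

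Place on the array moved with this lean. In the low-numbered rows 55.6% of 795 members stood lower with a median of -0.02, and in the high-numbered rows 78.2% of 818 with a median of -0.12. The other tested probes went from 49.7% of 13621 lower to 62.2% of 13414, with medians of 0.00 and -0.02. At an unadjusted limma p under 0.05, 22 members (2.77%) were lower in the low-numbered rows and 115 (14.1%) in the high-numbered rows, against 1.68% and 4.49% of the other probes there. Some members were bright on single arrays, at over 8 times the mean of their 3 lowest arrays. There were 41, 60, 67 and 59 such members on the MPE arrays, at most 2 per array of them in the high-numbered rows. This was 0.922%, 1.35%, 1.51% and 1.33% of members, and the other probes gave 0.932% to 1.23%. The vehicle arrays had 7, 8 and 12, at most 1 per array of them in the low-numbered rows, or 0.157% to 0.270% of members and 0.157% to 0.318% of other probes. The part of either in the lean was not tested.

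The lean was present at every brightness. All tested probes were put in 5 equal groups by mean level. In the dimmest, 655 members had a median difference of -0.12 and the other probes -0.06, with 66.4% and 60.8% lower. In the middle group, 263 members had -0.06 and the others -0.00, with 67.3% and 50.4% lower. In the brightest, 100 members had -0.05 and the others -0.02, with 82.0% and 63.6% lower. At an unadjusted limma p under 0.05, 82 of the 655 dimmest members (12.5%) were lower, against 8.26% of the other dimmest probes. In the brightest group 0 of 100 members were lower at that level, against 0.914% of the others. Forward and reverse members had medians of -0.07 and -0.07.

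None of the following single members passed the adjusted threshold, and they are given as those with the smallest unadjusted p among members whose groups did not overlap. The reverse probe of chr5:105063625-105077700 was detected on all 7 arrays and lay at 0.62, 0.63 and 0.56 with vehicle and 0.32, 0.35, 0.26 and 0.31 with MPE. All MPE arrays lay below all vehicle arrays, and the fitted MPE level was 0.817 times vehicle (95% interval 0.752 to 0.888, limma adjusted p = 0.669). Dimmer was the forward probe of chr6:117329899-117516899, also on all 7 arrays, at -2.81, -3.13 and -2.81 with vehicle and -3.44, -3.52, -3.77 and -3.46 with MPE. Its difference was -0.63 (SE 0.11, limma adjusted p = 0.710).

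The other members of this kind were on all 3 vehicle arrays and on no MPE array, so their MPE level has only a bound. They entered the fit through the vehicle arrays alone, and their p-values rest on MPE values below the detection limit and support nothing. The forward probe of chr11:69186873-69187472 had levels of -4.06, -4.34 and -4.38 with vehicle and -5.44, -6.28, -6.22 and -5.74 with MPE (limma adjusted p = 0.373). Its vehicle level lay below the MPE arrays' detection limit, so no fold is given. Next, the forward probe of chr1:182181289-182181849 was at least 1.09-fold higher with vehicle (limma adjusted p = 0.373), from levels of -3.98, -4.18 and -3.88 against -4.65, -4.61, -4.84 and -4.61. The reverse probe of chr4:73870498-73881323 was at least 1.15-fold higher with vehicle (limma adjusted p = 0.710), from -3.89, -4.24 and -3.69 against -4.70, -4.57, -4.62 and -4.60. Both other members of this kind, the forward probes of chr7:66926500-66952100 and chr14:26835914-26845344, had limma adjusted p-values of 0.710 and 0.740. Of the lower members named here, the chr11 probe lay in the low-numbered rows and the others in the high-numbered rows.

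Of the 4429 members without a missing value, 55 (1.24%) showed this pattern of all vehicle and no MPE arrays, and 0 showed the opposite one. The other probes gave 0.639% and 0.00769% for these patterns. Of the 55, 13 lay in the low-numbered and 42 in the high-numbered rows. The detection limit was higher on the MPE arrays, as given above. The part of either in this count was not tested. For 31 of the 55 the bound was above 1-fold, and the largest was at least 1.49-fold. These bounds set the vehicle mean against, on each MPE array, the lowest signal well above background or the probe's own where higher. They are point values without sampling error.

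Few members stood higher with MPE without overlap. The reverse probe of chr2:152172745-152184745, on all 7 arrays, lay at 2.83, 2.87 and 2.90 with vehicle and 3.03, 3.05, 3.05 and 2.99 with MPE. The ratio was 1.12 (95% interval 1.03 to 1.21, limma adjusted p of 1). The reverse probe of chr13:74568375-74601000 lay at -1.35, -1.40 and -1.37 with vehicle and -1.21, -1.26, -1.0 and -1.21 with MPE, a ratio of 1.15 (1.02 to 1.30, limma adjusted p of 1). Of these, the chr2 probe lay in the high-numbered rows and the chr13 probe in the low-numbered rows.

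The forward probe of chr18:36470130-36489110 and the reverse probe of chr9:41488229-41545481 were dimmer. Their MPE ranges were -2.88 to -1.50 and -3.91 to -2.36, above vehicle ranges of -3.26 to -2.91 and -4.42 to -3.99. The top values came from single arrays, MPE replicate 3 at -1.50 and MPE replicate 2 at -2.36. Both probes lay in the low-numbered rows, and their unadjusted limma p was 0.0844 and 0.0465. The forward probe of chr1:175654606-175672031 was on no vehicle array (-6.83, -6.62 and -6.81) and on 3 of 4 MPE arrays (-2.83, -1.04, -6.40 and -2.28). It entered the fit through those 3 arrays alone. The MPE mean, with MPE replicate 3 at its value below the detection limit, was at least 2.86-fold higher (limma adjusted p of 1), and the spot lay in the low-numbered rows.

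Strand balance was compared between the groups as the forward minus the reverse level within each array, in which array scaling cancels. The affinities of the probes remain in that difference and cancel only in its change between groups, so its size says nothing of which strand is more abundant. In the 120 regions with both strands on all 7 arrays the median change with MPE was 0.00 on the log2 scale, and 112 changes lay within 0.5 either way. The median SD within a group was 0.23 for vehicle and 0.22 for MPE. The groups did not overlap in 9 regions (7.50%), 5 with a shift towards the forward and 4 towards the reverse strand. With fewer arrays there is less to overlap. Without vehicle replicate 3 it was 28 regions, but without vehicle replicate 1 or 2, with as many arrays left, it was 14 each. The count of 9 has no other probes to be set against.

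The largest shifts towards the forward strand without overlap were in dim regions. In chr2:167388900-167402475 the forward minus reverse difference was 0.25, -0.02 and -0.36 with vehicle and 2.13, 0.87, 0.45 and 1.03 with MPE. In chr4:149383134-149451259 it was -0.89, -0.95 and -1.01 with vehicle and -0.06, -0.46, 0.49 and 0.21 with MPE. In both, the forward probe lay in the low-numbered and the reverse probe in the high-numbered rows of the array.

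Towards the reverse strand, the change of -1.91 in chr7:26054813-26063725 was the largest of all 120 regions in either direction. There the difference was 1.14, 0.71 and 3.11 with vehicle and -0.08, 0.29, -0.20 and -1.04 with MPE, with the forward probe in the high-numbered rows and the reverse probe in the low-numbered rows. Vehicle replicate 3, at 3.11, widened that shift. In chr11:16831925-16851121, whose 2 probes both lay in the low-numbered rows, it was -5.81, -5.75 and -5.80 with vehicle and -6.02, -6.40, -6.54 and -6.27 with MPE. The change of -0.52 there came with a reverse probe at 2.47 to 2.62 on all arrays and a forward probe at -3.94 to -3.16.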

How the data were processed

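Per the labels, RNA of each sample was labelled with Cy3 and hybridized to a 1-colour Agilent array. The deposited scanner files give per spot a processed intensity, background-subtracted and detrended per the file headers, raw median intensities, and flags. The file headers name Agilent Feature Extraction 11.5.1.1 and the submitters' processing notes 10.5.1.1. The authors' table of log2 values had a median of 4.44 in every column and correlated at 0.9996 or more with its own array. Its software is not given in the sources used.

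Left out were control spots and 611 spot values with an outlier flag; saturation flags numbered 0. Spots of a probe were averaged on the log2 scale, and the 75th percentile of each array was subtracted. A probe counted as well above background where no less than 50% of its spots did. A probe whose only spot was left out has no value on that array (20 of the members). Probes detected on 3 or more arrays entered a fit with lmFit and eBayes in limma 3.58.1 (R 4.3.3), treatment the only term, with Benjamini-Hochberg adjustment over all 28938. Members and lists were chosen with earlier results of these data known. Named members were the 10 brightest regions and strands, members without overlap between groups (5 per direction by p), members seen in 1 group (up to 5 per direction by p), 6 single-strand and 4 both-strand regions by brightness, the 2 largest strand shifts per direction, and the 3 regions with most probes. The planned comparison with neighbouring beta-cell genes was not done, since gene positions on mm9 were not used here.

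In a simulation with the spread of these arrays and 28938 probes, the fit called 38 of 50 probes changed by 2-fold and 13 of 28738 unchanged ones. Changed probes were drawn from all tested probes, with independent noise, so recovery of members was not measured. The same run also held 50 probes each changed by 1.5-fold, 4-fold and 8-fold. More called probes ease the adjusted threshold, and limma called only 3 of 28938 probes in the data. The simulated recovery can therefore overstate that in the data. The median SE of the difference was 0.140 for members and 0.0926 for all tested probes. The number of arrays limits the precision. Alternatives were other scalings, filters, the authors' table, normexp (offset 50, on median spot intensity), 1 probe per region and strand, variance models, array weights, replicate and slide-column blocks, parts of the array, other detection rules, and each array left out. Leaving out replicate 3 of both groups was added after seeing the data.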

Additional observations from a re-analysis of the deposited data

Results flagged for a closer look

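MPE replicate 4 stood apart from the other MPE arrays for the reverse probe of chr7:26054813-26063725, at -1.288 against -2.737 to -2.625 on the other 3. Of 38 values checked in this way over the 4 MPE arrays this was the only one, and chance would give about 1.9.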

How the results depend on the processing

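No intergenic probe was called by limma under any setting except without a filter on dim probes, where 1027 of 4449 members (23.1%) and 21.1% of all probes were called. That setting tests probes at the floor, whose median level was -6.83 to -6.72 on vehicle arrays and -6.33 to -6.30 on MPE arrays for members on no array. It also turned the median difference to 0.0935. The median was -0.1406 with median scaling, -0.0220 in the low-numbered rows and -0.1227 in the high-numbered rows, and -0.1034 to -0.0506 with arrays left out. Over all tested probes the median was -0.0843 with median scaling, against -0.0145 in the main fit. The unadjusted count of lower members was 87 to 197 with arrays left out (197 without vehicle replicate 3, 87 without vehicle replicate 2), 224 with median scaling and 292 with the replicate block. In percent of members these were 5.38% to 12.2%, 13.8% and 18.0%. The shares over all tested probes moved as well, to 2.17% to 4.69%, 6.11% and 6.30%, from 3.35% in the main fit. Deviations from the group means correlated at 0.24, 0.05 and 0.40 between vehicle and MPE arrays that share a replicate number. Between arrays of different numbers the correlations ran from -0.33 to 0.29. The main fit did not pair the arrays, and the replicate block gave 0 calls and a median of -0.08.

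The difference in the number of members detected per array was -238. It became -316 with the positive and significant flag and 1.92 with 1 limit for all arrays. Counted over part of the members only, it was -50.1 for the 2214 in the low-numbered rows and -188 for the 2230 in the high-numbered rows. The share on all arrays was 45.5% with the positive and significant flag, and 34.1% or 50.3% where 4 arrays or 1 sufficed. Single-strand regions numbered 354 with detection on at least 4 arrays and 80 with that flag, which gave 251 both-strand regions. Strand balance did not overlap in 10 to 28 regions with 1 array left out, against 9 with all arrays, and fewer arrays overlap less. The 28 came without vehicle replicate 3, against 14 without vehicle replicate 1 and 14 without vehicle replicate 2.

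Of 893 alternatives for 43 named probes, 21 turned the sign. With quantile normalization and with the authors' table the brightest probe (chr17:48068261-48087905) went to 0.0420 and 0.0418 and chr11:22681800-22707775 to 0.0428 and 0.0417. Under the slide-column block the latter went to 0.0268, chr12:73838608-73862621 (reverse) to 0.0158 and chr6:83368261-83407280 to 0.0358. With median scaling chr19:56820850-56837925 (reverse) went to -0.0683 and chr11:16831925-16851121 (reverse) to -0.0014. With 1 array left out, the range was -0.0885 to 0.0290 for chr11:22681800-22707775, -0.198 to 0.00931 for chr14:78924115-78938125, -0.197 to 0.0158 for chr12:73838608-73862621 (reverse), -0.178 to 0.0358 for chr6:83368261-83407280, -0.461 to 0.0952 for chr8:48476637-48492537 and -0.0407 to 0.0541 for chr19:56820850-56837925 (reverse). Without a filter 8 named probes were called.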

Other observations

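The share of intergenic probes detected on all 7 arrays varied between chromosomes. It was lowest on chromosome X, with 20.7% of 174 probes, followed by chromosomes 9 (21.8% of 193) and 13 (21.8% of 261). It was highest on chromosome 17, with 43.4% of 249 probes, followed by chromosomes 19 (38.9% of 95) and 14 (37.1% of 186). Among the 71 combinations of region and strand with at least 2 probes on all 7 arrays, the difference between MPE and vehicle had the same sign for every probe in 37 (52.1%).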
